A study of Mus musculus with 2 samples.

Results

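The genes described here are the 10 core genes of N6-methyladenosine (m6A) in RNA: the writers Mettl3, Mettl14 and Wtap, the erasers Fto and Alkbh5, and the YTH-domain readers Ythdf1, Ythdf2, Ythdf3, Ythdc1 and Ythdc2. They were chosen by gene symbol and role, by a rule that uses no measured value although earlier results of these data were known, and all 10 were found among the 21542 genes measured. Messenger RNA was sequenced from MIN6, a mouse insulinoma line that secretes insulin (strain C57BL/6 in the labels), used to stand in for beta cells of the pancreas. One culture carried a vector that expresses GR, the glucocorticoid receptor encoded by Nr3c1, and the other a control vector. Both were kept in 25 mM glucose with 15% serum and received 4 ug of plasmid with 4.8 ul of Lipofectamine 2000 in a 3.5 cm dish. The sources used here do not give the promoter or species of the GR cDNA, the share of cells that took up plasmid, when cells were harvested or whether a glucocorticoid was added. There was 1 library per vector, so none of the differences can be checked against replicates, and the methylation of RNA itself was not measured.

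m6A is the most common internal modification of messenger RNA. Mettl3 and Mettl14 encode the paired subunits of the methyltransferase core, in which METTL3 holds the catalytic site and METTL14 helps to bind the RNA, and Wtap encodes the adaptor that brings the pair to nuclear speckles. FTO and ALKBH5 are iron-dependent dioxygenases that can remove the mark, and YTH proteins bind it and steer the splicing, export, translation or decay of the transcript. In mouse beta cells, loss of the methyltransferase core is known to impair insulin secretion. GR is a nuclear receptor that binds DNA as a dimer at paired half-sites, and the comparison asks how transcripts differ when more of it is made.

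The deposited values were whole reads times a constant, and the reads recovered from them came to 18525668 with the GR vector and 18537326 with the control vector. The targeted gene Nr3c1 had 5202 reads with the GR vector and 2645 with the control vector, a fold of 1.97 (95% interval 1.88 to 2.07). The intervals given here are exact and cover counting error only. Reads from the vector and from the cells' own gene cannot be told apart in these counts. All 10 beta cell markers examined were read, with a sum of 871430 reads with the GR vector and 920633 with the control vector, from 3543 and 3279 reads for Pcsk1 to 373033 and 407986 for Ins2 in the GR and control libraries. Markers of other cells were each read less than any of these. The most read of them was the duct keratin gene Krt7, which had 2166 reads with the GR vector and 2429 with the control vector. With the GR vector that was more than 8 of the 10 m6A genes had. The part of Krt7 in the results was not tested. Of the 7 exocrine and duct markers examined, 2 were in the table, and the duct markers Krt19 and Sox9 were not. The 3 endocrine markers of other islet cells that the table lists summed to 746 and 638 reads (Gcg 623 and 537), the 3 immune markers to 214 and 212 (C1qa 192 and 186) and the 4 fibroblast and endothelial markers to 77 and 73, in the GR and control libraries. The exocrine marker Cela1 had 13 reads with the GR vector and 7 with the control vector. In bulk RNA, fewer cells expressing a gene and less RNA per cell cannot be told apart.

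The letters of the GR half-site were looked up in the promoters of the genes, taken from RefSeq on build GRCm38.p6 as 250 bases before to 50 bases after each annotated start. The genes Mettl3, Wtap, Fto, Alkbh5, Ythdf1, Ythdf2 and Ythdc1 were covered, 7 in all with 9 promoters. Mettl14 and Ythdf3 had no promoter entry and Ythdc2 was left out of the lookup, so the counts below say nothing about these genes. The half-site AGAACA, or TGTTCT on the other strand, occurred in 1 of the 9, that of Mettl3, where it began 157 bases before the start. It occurred in 19.0% of all 32851 RefSeq mouse promoters. The paired form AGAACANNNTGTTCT, which contains the half-site on each side, occurred in 0 of the 9 and in 0.00913% of all promoters. A match of letters is a description of the window and not a binding site. The promoters of a writer, an eraser and a reader are printed so that the 1 window with the letters can be set beside 2 without, with the half-site in capitals. They are chr14:52305075-52305374 on the minus strand for Mettl3, chr8:91313275-91313574 on the plus strand for Fto and chr4:132212207-132212506 on the minus strand for Ythdf2.
Mettl3: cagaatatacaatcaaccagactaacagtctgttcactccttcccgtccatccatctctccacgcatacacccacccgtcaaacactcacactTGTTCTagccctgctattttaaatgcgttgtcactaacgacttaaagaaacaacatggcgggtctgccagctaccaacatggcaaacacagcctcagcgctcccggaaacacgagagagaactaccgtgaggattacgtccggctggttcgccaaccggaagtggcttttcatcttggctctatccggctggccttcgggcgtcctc
Fto: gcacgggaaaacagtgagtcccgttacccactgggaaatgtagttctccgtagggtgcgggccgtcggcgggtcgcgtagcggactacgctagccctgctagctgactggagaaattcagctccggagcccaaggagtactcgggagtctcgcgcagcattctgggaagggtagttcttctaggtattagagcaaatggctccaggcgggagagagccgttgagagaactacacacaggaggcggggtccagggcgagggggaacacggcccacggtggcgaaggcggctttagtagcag
Ythdf2: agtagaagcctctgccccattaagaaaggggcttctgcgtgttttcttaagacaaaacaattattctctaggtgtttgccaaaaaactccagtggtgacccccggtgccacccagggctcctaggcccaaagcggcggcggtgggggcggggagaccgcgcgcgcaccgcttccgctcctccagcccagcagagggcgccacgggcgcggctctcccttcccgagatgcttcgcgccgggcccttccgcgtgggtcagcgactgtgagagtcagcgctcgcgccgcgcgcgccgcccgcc

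As a group, the 10 genes stayed close to their control levels in the cells given the GR vector. Together they took 16664 reads with the GR vector and 16199 with the control vector, a fold of 1.03 (95% interval 1.01 to 1.05). Their median log2 fold change, GR vector over control vector, was 0.04, beside a median of 0.0042 over the 11070 genes averaging 100 or more reads. Of the 10 genes, 7 had a log2 fold change above 0 and 3 below, beside 5675 above and 5395 below among the 11070 genes. The 7 include Mettl3 at 3.6e-05. The counts of 7 and 3 became 6 and 4 under each other scaling of the libraries. They became 4 and 6 once the genome-wide trends of length and GC content were removed. None of the 10 passed 1.2-fold in either direction, beside 5.04% of the 11070 genes, 2.68% higher and 2.36% lower with the GR vector. Among the 5306 genes whose mean reads lay within the range of these 10, which is the closer comparison at their depth, 0.396% passed 1.2-fold. Single folds ran from 0.959 for Ythdf1 to 1.12 for Mettl14.

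The counting interval of the fold left out 1 for 3 of the 10 genes, Mettl14, Ythdf3 and Ythdc1, all higher with the GR vector. Such intervals left out 1 for 19.5% of the 11070 genes, above 1 for 10.8% and below 1 for 8.63%, and for 21.0% of the genes within the same range of reads. An interval of this kind compares the reads of 2 libraries and not the conditions. In the authors' deposited table, whose adjusted p was under 0.05 for 0.0186% of all 21542 genes, the adjusted p was 1 for each of the 10, and their unadjusted p lay between 0.699 for Mettl14 and 1 for Mettl3. Those p-values match an exact test of edgeR with a preset spread between replicates (a coefficient of variation of 20%). They rest on an assumed error and not a measured one. The targeted gene Nr3c1, at a fold of 1.97, did not pass the adjusted limit either. Missing that limit therefore does not show that a gene kept its level.

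**Figure D1:**
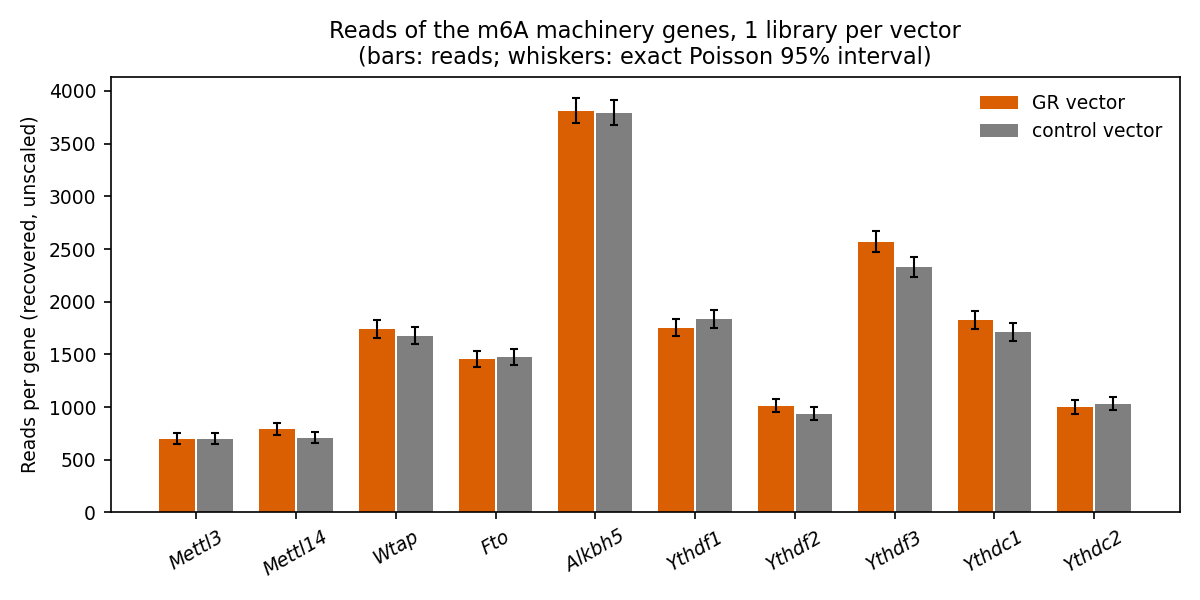
Reads per gene (vertical axis, recovered whole reads, not scaled for length) of the 10 genes with the GR vector (orange, left bar) and the control vector (grey, right bar); whiskers are exact Poisson 95% intervals for counting error. Each gene has bars of similar height, from 698 and 700 reads for Mettl3 to 3814 and 3794 for Alkbh5.

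**Figure D2:**
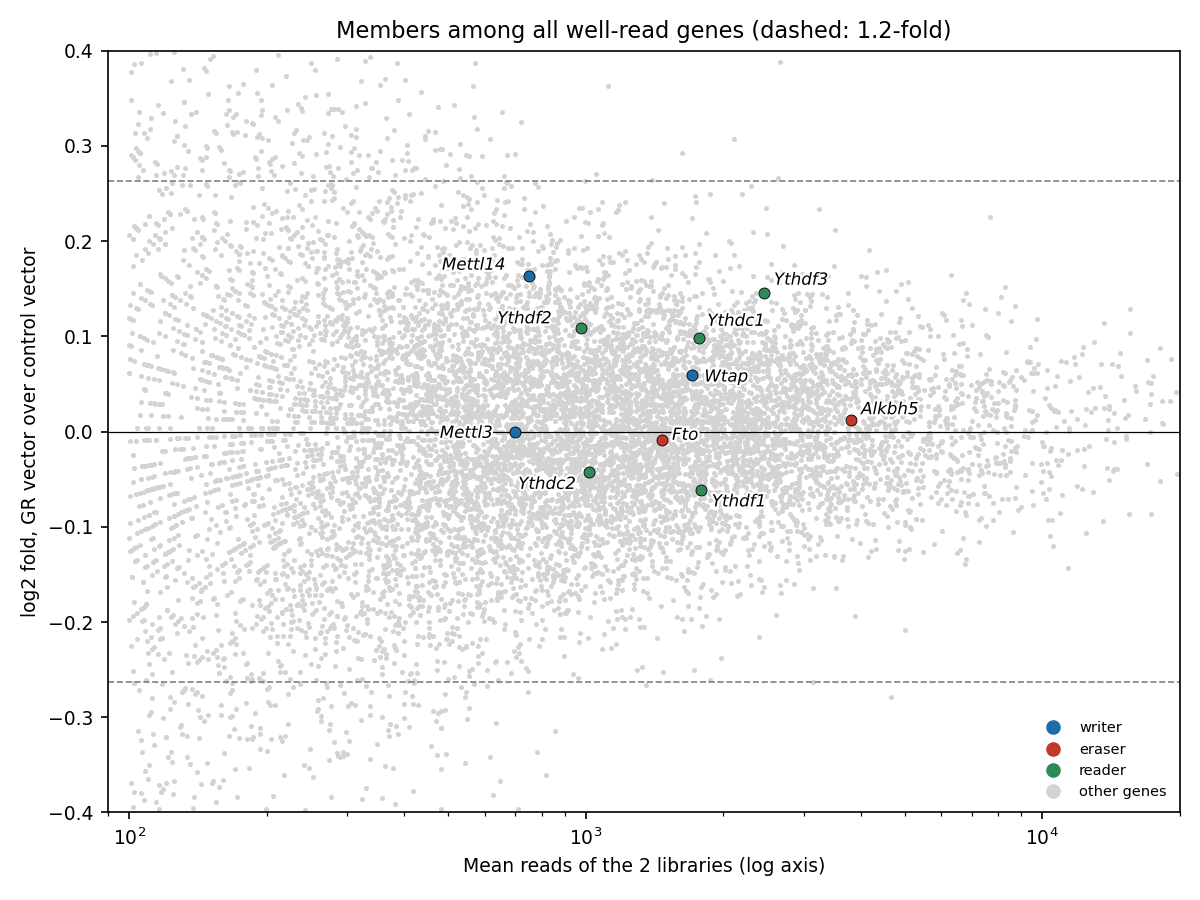
Log2 fold change, GR vector over control vector, against mean reads (log axis) for genes averaging 100 or more reads (grey), with writers in blue, erasers in red and readers in green; dashed lines mark 1.2-fold, and 158 of 11070 genes lie outside the axes. The 10 genes sit inside the dashed lines, between -0.06 for Ythdf1 and 0.16 for Mettl14.

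Among the writers, the catalytic subunit gene was level between the libraries and its partner was slightly higher with the GR vector. Mettl3 (ENSMUSG00000022160, chromosome 14, 52294841 to 52305128, minus strand) had 698 reads with the GR vector and 700 with the control vector. Its fold was 1.00, with a counting interval of 0.899 to 1.11. Its exons overlap those of Tox4 on the opposite strand by 933 bases, 18.4% of its exon length. The sources used here do not say how strand was handled, so reads of that stretch cannot be assigned to one gene with certainty. Tox4 itself had 2018 reads with the GR vector and 1983 with the control vector.

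Mettl14 (ENSMUSG00000028114, chromosome 3, 123368297 to 123386108, minus strand) had 794 reads with the GR vector and 711 with the control vector, 83 reads more. This was the highest fold of the 10, at 1.12 (1.01 to 1.24). With the trends of length and GC content removed, the fold was 1.07 and the interval, moved with it, was 0.967 to 1.19, which holds 1. The abundance of Mettl3 relative to Mettl14 was 1.28 with the GR vector and 1.44 with the control vector, as a ratio of reads per kilobase of exon. With the longest annotated transcript as the length, it was 2.93 with the GR vector and 3.28 with the control vector. Library scaling and gene length cancel when the ratio is compared between the libraries. The ratio in the GR library was 0.893 of that in the control library, with an exact interval of 0.770 to 1.04 that holds 1, so the unequal folds of these partners were not separable by counting.

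Wtap (ENSMUSG00000060475, chromosome 17, 12966796 to 12994169, minus strand) had 1740 reads with the GR vector and 1675 with the control vector, a fold of 1.04 (0.974 to 1.11). It had the most reads of the writers in both libraries. It shares 5.45% of its 31-base words with the processed pseudogene Gm14292, which had 55 reads with the GR vector and 61 with the control vector. Its fold with the trends of length and GC content removed was 0.998. The 3 writers summed to 3232 reads with the GR vector and 3086 with the control vector, a fold of 1.05 (0.999 to 1.104).

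Of the 3 roles, the erasers summed closest to a fold of 1. Fto (ENSMUSG00000055932, chromosome 8, 91313525 to 91668439, plus strand), whose enzyme also acts on the methylated adenosine next to the cap, had 1459 reads with the GR vector and 1472 with the control vector. Its fold was 0.994 (0.924 to 1.07), and 0.965 (0.897 to 1.04) with the trends removed. Alkbh5 (ENSMUSG00000042650, chromosome 11, 60536381 to 60558512, plus strand), which encodes a nuclear demethylase, had 3814 reads with the GR vector and 3794 with the control vector. At this depth, the highest of the 10 genes, its fold of 1.01 had the narrowest interval, 0.964 to 1.05. The ratio of Fto to Alkbh5 was 0.176 with the GR vector and 0.178 with the control vector per kilobase of merged exon, and 0.466 and 0.472 per kilobase of the longest transcript. It differed between the libraries by a factor of 0.986 (0.905 to 1.07). Both erasers together had 5273 reads with the GR vector and 5266 with the control vector.

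The YTHDF readers, cytoplasmic paralogs that are known to affect translation and decay of methylated transcripts, did not all lie on the same side of 1. Ythdf3 (ENSMUSG00000047213, chromosome 3, 16183212 to 16217037, plus strand) had 2571 reads with the GR vector and 2331 with the control vector. Its fold was 1.11 (1.05 to 1.17), the interval farthest from 1 among the 10 genes. It was the 1 gene of the 10 whose interval still left out 1 with the trends of length and GC content removed, at 1.06 (1.00 to 1.12, the lower bound being 1.0032). No share over all genes was computed with the trends removed, so this 1 of 10 has none to be read against. Ythdf2 (ENSMUSG00000040025, chromosome 4, 132184912 to 132212303, minus strand), whose protein recruits the CCR4-NOT deadenylase, had 1010 reads with the GR vector and 939 with the control vector, a fold of 1.08 (0.986 to 1.18). The processed pseudogene Gm6823 shares 11.4% of its 31-base words and Gm8401 11.2%, and Gm8401 had 2 reads with the GR vector and 4 with the control vector.

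Ythdf1 (ENSMUSG00000038848, chromosome 2, 180904377 to 180920949, minus strand), best known for promoting translation, had 1751 reads with the GR vector and 1832 with the control vector. Its fold was 0.959 (0.897 to 1.02), the lowest of the 10. The ratio of Ythdf1 to Ythdf3 per kilobase was 1.101 with the GR vector and 1.271 with the control vector, a factor of 0.867 (0.794 to 0.945). That of Ythdf1 to Ythdf2 was 2.39 with the GR vector and 2.69 with the control vector, a factor of 0.889 (0.794 to 0.994). Of the 8 pairs compared within roles, these were the 2 whose interval left out 1, without adjustment for the number of pairs and with no share over other gene pairs to read it against. With the trends of length and GC content removed, the factor for Ythdf1 to Ythdf2 was 0.902 (0.807 to 1.01), which holds 1, and that for Ythdf1 to Ythdf3 was 0.908 (0.832 to 0.991). Ythdf1 has a GC content of 49.1%, Ythdf3 38.4% and Ythdf2 46.1% in the longest transcript, and with the trends of length and GC content removed their folds were 0.964, 1.06 and 1.07.

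Of the YTHDC readers, Ythdc1 (ENSMUSG00000035851, chromosome 5, 86804221 to 86836659, plus strand), the nuclear reader that acts in splicing and export, had 1827 reads with the GR vector and 1712 with the control vector. Its fold was 1.07, and the lower bound of its interval lay at 1.00142 (upper bound 1.14). With the trends removed the fold was 1.00 (0.935 to 1.07). Ythdc2 (ENSMUSG00000034653, chromosome 18, 44827746 to 44889724, plus strand), an RNA helicase known for its part in meiosis of mouse germ cells, had 1000 reads with the GR vector and 1033 with the control vector. Its fold was 0.971 (0.889 to 1.06), and 0.927 (0.849 to 1.01) with the trends removed, then the lowest of the 10. The 5 readers summed to 8159 reads with the GR vector and 7847 with the control vector, a fold of 1.04 (1.01 to 1.08).

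**Figure D3:**
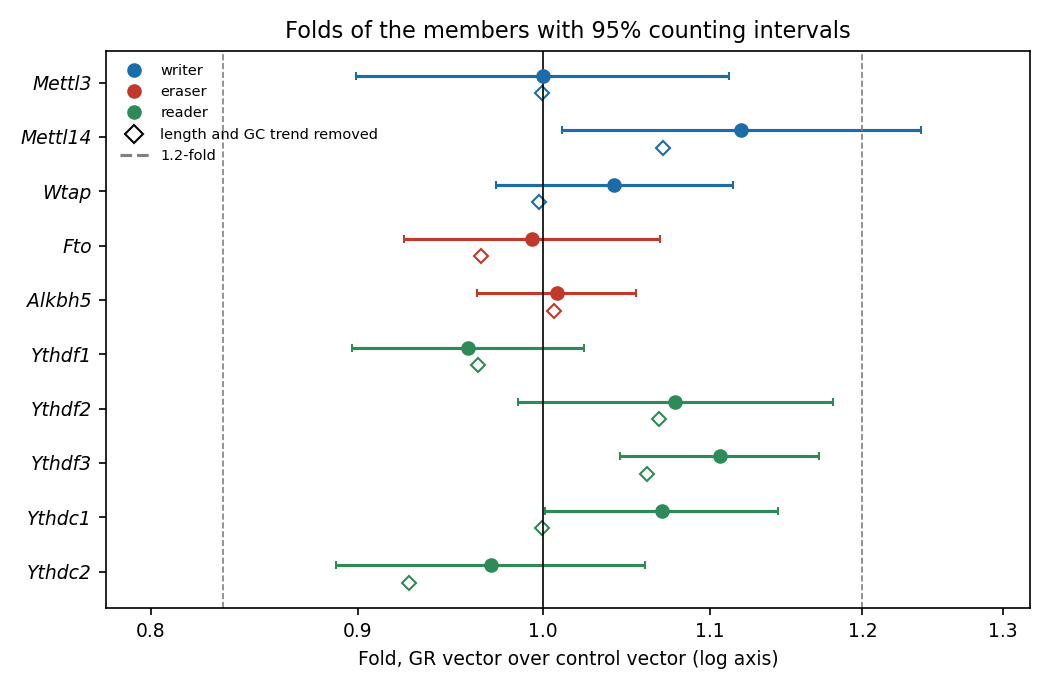
Fold, GR vector over control vector (log axis), of each gene with its exact 95% counting interval (filled circles and bars; writers blue, erasers red, readers green) and the fold with the trends of length and GC content removed (open diamonds); the solid line marks 1 and dashed lines 1.2-fold in either direction. The intervals of Mettl14, Ythdf3 and Ythdc1 lie above 1, and the diamonds of Wtap and Ythdc1 lie at 1.00.

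GC content moved with these differences. Over the genes averaging 100 or more reads, the median log2 fold change was 0.07 for 665 genes with a GC content under 40% in their longest transcript, 0.05 for 2259 genes from 40% to 45%, and -0.05 for 2481 genes of 55% or more. The genes whose interval lay above 1 had a low GC content, at 41.2% for Mettl14, 38.4% for Ythdf3 and 37.6% for Ythdc1. Wtap had 39.6% and Ythdc2 42.0%, and the others lay between 46.1% and 50.0%. With the trends removed, the median log2 fold change of the 10 genes was -0.00049 in place of 0.04. Whether composition produced the differences was not tested.

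**Figure D4:**
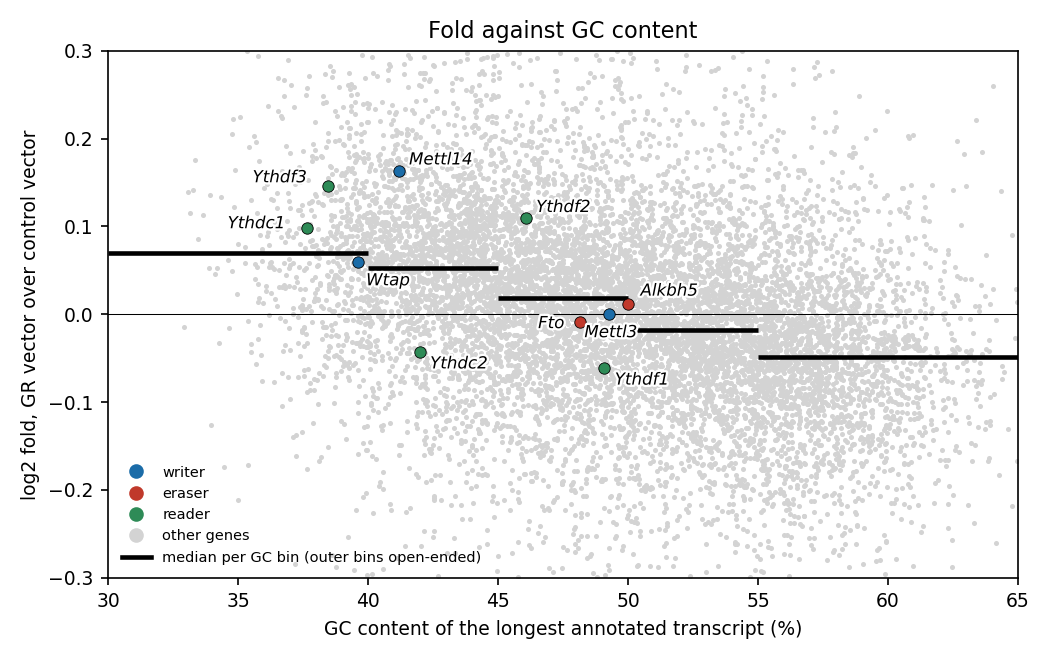
Log2 fold change, GR vector over control vector, against the GC content of the longest annotated transcript (percent), with genes averaging 100 or more reads in grey, the 10 genes coloured by role, and black bars for the median of each GC bin; 412 of 11062 genes lie outside the axes. The bin medians go from 0.07 under 40% GC to -0.05 at 55% and above, and Mettl14, Ythdf3 and Ythdc1 lie at the low-GC side.

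Levels of the 10 genes relative to each other were the same in order in both libraries, as RPKM (reads per kilobase of merged exon, scaled to the total gene reads of each library). Alkbh5 was the most abundant, at 34.4 with the GR vector and 34.2 with the control vector. Ythdf1 followed with 28.5 and 29.8, and Ythdf3 with 25.9 and 23.4, in the GR and control libraries. Wtap stood at 15.0 and 14.5 and Ythdf2 at 11.9 and 11.1. The remaining genes were close together, with Mettl3 at 7.42 and 7.44, Ythdc1 at 7.22 and 6.77, Ythdc2 at 6.08 and 6.28, Fto at 6.04 and 6.09, and Mettl14 at 5.78 and 5.17. The counting intervals of these neighbours overlapped for Mettl3 with Ythdc1 and for Ythdc2 with Fto in both libraries, for Fto with Mettl14 in the GR library alone, and for Ythdc1 with Ythdc2 in the control library alone. Alkbh5 ranked above 86.4% of the well-read genes and Mettl14 above 29.3%. The order depends on the length used: with the longest annotated transcript in place of merged exons, Wtap stood at 29.5, Mettl3 at 17.5, Fto at 16.7 and Ythdc1 at 15.6 with the GR vector. Fto then took place 6 in place of 9, and Ythdf2 place 8 in place of 5.

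The wider set of genes around m6A held 50 genes in 6 lists, of which 49 were in the table and 45 averaged 100 or more reads. The median log2 fold change of these 45 was 0.0016, with 23 above 0 and 22 below. Past 1.2-fold were 1 higher and 1 lower gene of the 45, beside 5.04% of the 11070 genes. These were Alkbh8 and Alkbh2 of the other AlkB dioxygenases, with means of 401.5 and 102.5 reads. The interval lay above 1 for 8 of the 45 and below 1 for 0, beside the 10.8% and 8.63% of all genes given above. Intervals narrow as reads rise, and the mean reads of the 8 ran from 401.5 for Alkbh8 to 12230.5 for Ahcyl1. No share over genes of like depth was computed for these lists, so the shares over all genes are not matched to them. With the trends of length and GC content removed and the intervals moved with the folds, the interval lay above 1 for 4 of the 45 and below 1 for 3. Of the 8, 3 kept their interval above 1 (Eif3a, Cnot1 and Ahcyl1). The share over all genes was not computed with the trends removed, so these trend-removed counts have none to be read against.

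All 5 cofactors of the writer complex, which help to anchor it to its targets, had intervals that held 1. Rbm15b, an RNA-binding adaptor, had 2817 reads with the GR vector and 2822 with the control vector, and Virma, the scaffold subunit, had 1853 and 1789. Rbm15, the paralog of Rbm15b, had the largest difference, with 1089 reads with the GR vector and 1165 with the control vector (fold 0.937, interval 0.862 to 1.02), and with the trends removed its interval of 0.835 to 0.987 lay below 1. Of the 5 genes of other RNA adenosine methyltransferases and their partners, the cap-adjacent methyltransferase gene Pcif1 had 2235 and 2264 reads and Mettl16, which methylates the U6 small nuclear RNA, 1039 and 994, in the GR and control libraries. Zcchc4, a ribosomal RNA methyltransferase gene, had 233 reads with the GR vector and 200 with the control vector, a fold of 1.17 whose interval of 0.963 to 1.42 holds 1.

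Among other proteins proposed to read m6A, 11 of 14 genes averaged 100 or more reads. Of these 11, 3 had an interval above 1, Hnrnpc, Fmr1 and Eif3a, beside 10.8% of the 11070 genes. That share is not matched to their depth. Eif3a, a subunit of a translation initiation factor, had 9113 reads with the GR vector and 8340 with the control vector (fold 1.096, interval 1.06 to 1.13). With the trends removed its interval was 1.03 to 1.09, and those of Hnrnpc (0.999 to 1.08) and Fmr1 (0.972 to 1.09) held 1. The deposited length of Eif3a was 5176 bases, against 8731 in the annotation used to remove the trends, so its trend-removed interval is less certain. The nuclear RNA-binding protein gene Hnrnpa2b1 had 18432 and 18377 reads and Prrc2a 15193 and 15282, in the GR and control libraries. Their intervals held 1, but with the trends removed that of Hnrnpa2b1 was 0.955 to 0.995 and that of Prrc2a 1.0009 to 1.05. The Igf2bp family was barely read, and Igf2bp1 was not among the genes measured. Igf2bp2 had 39 reads with the GR vector and 51 with the control vector, and Igf2bp3 had 8 and 12. Of the genes through which readers act on decay and export, Cnot1, the scaffold of the CCR4-NOT complex that YTHDF2 recruits, had 8350 reads with the GR vector and 7679 with the control vector. Its fold was 1.09 (1.06 to 1.12), and 1.04 (1.01 to 1.07) with the trends removed. Srsf3, a splicing factor that YTHDC1 binds, had 7666 reads with the GR vector and 7375 with the control vector, a fold of 1.04 (1.01 to 1.08), which turned to 0.995 (0.963 to 1.03) with the trends removed.

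**Figure D5:**
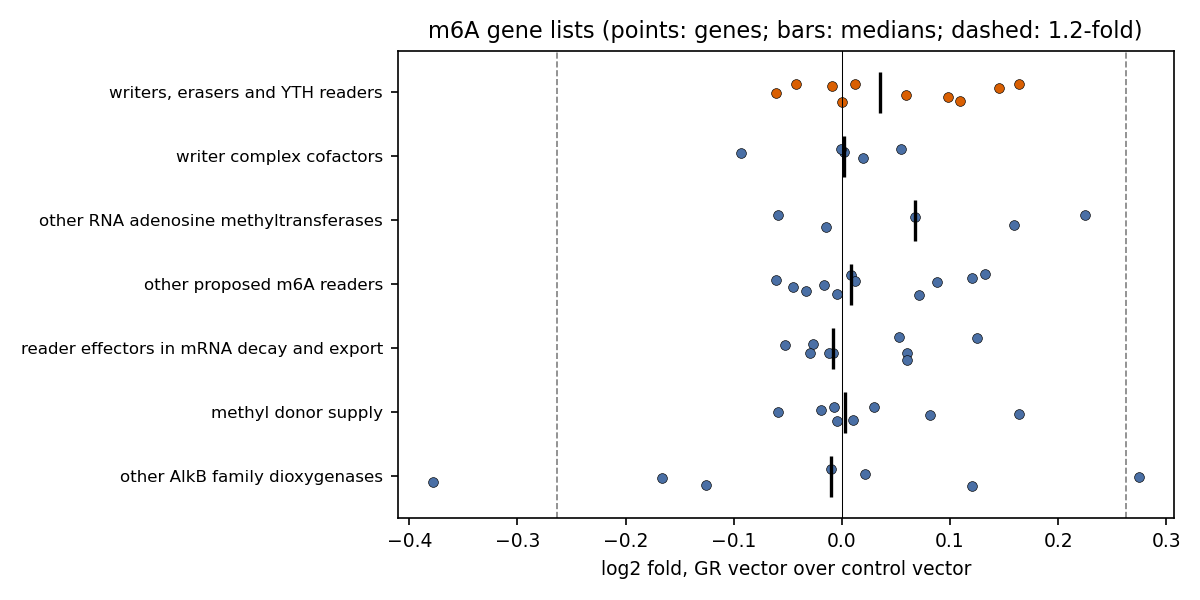
Log2 fold change, GR vector over control vector (horizontal axis), of the 10 genes (orange) and of 6 lists of related genes averaging 100 or more reads (blue); black bars are list medians and dashed lines mark 1.2-fold. List medians lie between -0.01 and 0.07, and the 2 points past a dashed line are Alkbh2 and Alkbh8.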

How the data were processed

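RNA was sequenced from 1 MIN6 culture with the GR vector and 1 with the control vector. The authors deposited a normalized signal for 21542 genes, and 100% of its values were whole multiples of 1 step per library within 0.01 reads, so whole reads were recovered by division. DESeq2 1.10.1 is named in the submitters' processing notes. Aligner, counter, strand handling and build: not given in the sources used here. The authors also deposited a log2 fold change, a p-value and an adjusted p-value, which match edgeR's exact test (version 4.0.16) at a preset dispersion of 0.04 to within 4.5e-08 for p. Run on the recovered reads, that test called 4 genes at an adjusted p under 0.05, and 235 at an unadjusted p under 0.05.

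Folds are GR vector over control vector on TMM-scaled library sizes, with Clopper-Pearson 95% intervals; ratios between genes have exact conditional odds ratio intervals (scipy 1.17.1). Intervals cover counting error only, and reads are not independent molecules. Coordinates are those deposited, which equal GENCODE M21 (GRCm38) for all 10 genes. GENCODE M21 gave exon length, GC content, overlaps and shared 31-base words. Trends of log2 fold change with length and GC content were removed by lowess (statsmodels 0.14.6, fraction 0.3) over 11062 genes. The counting intervals of the folds and the exact test were tried on simulated counts, whose changed genes differed by more than the 10 genes here. The removal of the trends, the ratios between genes and the promoter lookup were not. The 10 genes and all lists were chosen with earlier results of these data known. All 10 are named. Of each wider list are named the 2 most read, those past 1.2-fold and the largest change among genes averaging 100 or more reads. Genes with an interval above 1 were named after their values were seen. Igf2bp2, Igf2bp3 and Ahcyl2 are also named, outside these rules. Enrichment tables and the short gene list were not used here.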

Additional observations from a re-analysis of the deposited data

How the results depend on the processing

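Scaling by total reads, DESeq2 size factors, centring and removal of the length and GC trends each left 0 of the 10 genes past 1.2-fold. So did a 1.5-fold limit, no filter on reads and a minimum of 1000 reads (7 of the 10 genes). At 1.1-fold 2 passed, both higher. A stricter limit or a subset of the genes cannot add one, nor can dropping the filter, as all 10 averaged 100 or more reads. Total reads, size factors and centring shifted every gene by 0.0042 or less on the log2 scale. With the highest fold at 1.12, they could not add one either. Of these settings, only the removal of the trends and the 1.1-fold limit could have changed the count. All 10 share under 25% of their 31-base words, so leaving out genes above that changed nothing. The genes past the limit over the whole table went from 558 at 1.2-fold to 2341 at 1.1-fold, 31 at 1.5-fold, 8081 of 21542 with no filter on reads and 14 of 4867 with at least 1000 reads. In the wider lists the 2 genes past 1.2-fold became 1 with the trends removed, 6 at 1.1-fold, 0 at 1.5-fold and 5 with no filter. The count of intervals above 1 among the 10 genes was 3, 2 under each other scaling (Ythdc1 then held 1) and 1 with the trends removed, an alternative added after the data were seen, as were the trend-removed intervals of the wider lists (8 left out 1, and 7 with the trends removed) and of the ratios, the longest transcript as length and the genes within the same range of reads. No share of such intervals over all genes was computed with the trends removed. The median log2 fold change of the 10 was -0.00049 with the trends removed. Of 40 single-gene values under other scalings, 39 stayed inside the counting interval of the gene, and Ythdc1 with the trends removed fell outside it. Total reads shifted every gene by -0.0033 on the log2 scale, and DESeq2 size factors and centring by -0.0042. These shifts are far smaller than the intervals, so only the values with the trends removed could readily leave them. The directions of Mettl3, Wtap and Ythdc1 lie within 0.01 of 0 on the log2 scale under some scalings and turn there. With edgeR's exact test, 4 genes passed at a dispersion of 0.04, as in the authors' table, 0 at 0.16 (65 at an unadjusted p under 0.05) and 16 at 0.01. The cause of these shifts was not tested. No paired analysis was possible because each vector has 1 library. Depth limits single folds to intervals between 0.964 to 1.05 for Alkbh5 and 1.01 to 1.24 for Mettl14.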

Other observations

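The other AlkB family dioxygenases, relatives of Fto and Alkbh5 that act mainly on DNA, transfer RNA or proteins, had folds between 0.769 and 1.21 at lower read numbers. All 7 averaged 100 or more reads. Alkbh8, a transfer RNA methyltransferase and hydroxylase, had 439 reads with the GR vector and 364 with the control vector, a fold of 1.21 (95% counting interval 1.05 to 1.39), which was 1.15 (0.998 to 1.325) with the trends of length and GC content removed. Alkbh2, a DNA repair enzyme, had 89 reads with the GR vector and 116 with the control vector, a fold of 0.769 (0.577 to 1.02), and shares 26.4% of its 31-base words with other genes. The most read members, Alkbh6 with 457 and 500 reads and Alkbh3 with 404 and 408, had intervals that held 1. The median log2 fold change of the list was -0.01.

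Genes that supply or recycle the methyl donor S-adenosylmethionine had a median log2 fold change of 0.0032 over 8 genes, 4 above 0 and 4 below. Mat2a, the enzyme that makes the donor, had 3591 reads with the GR vector and 3575 with the control vector (fold 1.01, interval 0.962 to 1.06). Ahcyl1, a relative of the enzyme that clears the by-product, had 12557 and 11904 reads (fold 1.06, 1.03 to 1.08), and Mtr, methionine synthase, 876 and 784 (fold 1.12, 1.02 to 1.24), in the GR and control libraries. With the trends removed the fold of Ahcyl1 was 1.04 (1.02 to 1.07), and that of Mtr was 1.09 (0.990 to 1.203), whose interval holds 1. That of Ahcyl2, with 2848 reads with the GR vector and 2975 with the control vector, was then 0.921 (0.875 to 0.970), and it was chosen after its values were seen.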
